A study of Mus musculus with 44 samples.

Results

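Complement components and regulators are described here in mouse mammary fibroblasts through 9 genes out of the 55486 in the deposited table of read counts: C1s1, C1ra, C4b, C4a, C3, Cfb, Cfd, Serping1 and C3ar1. They were taken by symbol. Fibroblasts were sorted as EpCAM−/CD49f−/CD31−/CD45− cells and divided by surface CD26 (the product of Dpp4) and by GFP, which marks the lineage of cells that have expressed En1. Stranded mRNA libraries of these populations were sequenced, and reads were counted per gene.

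The hosts were female En1-Cre;mTmG mice, made by crossing En1-Cre for 2 generations to mTmG mice on FVB/n, in which small pieces of donor mammary tissue had been placed in fat pads that were not cleared, so that each host kept its own gland. The tumor models are on FVB/n. Control libraries are labelled wildtype and come from normal tissue, and its fibroblasts are called NFs. WB1P donors (WapCre;Brca1F/F;Trp53F/F) lose Brca1 and Trp53 where the milk protein promoter Wap drives Cre. WB1P-Myc donors carry in addition the Col1a1 invCAG-Myc-IRES-Luc allele. Fibroblasts of the tumors are called CAFs. The series text describes tumors at end stage and age-matched controls, and 2 WB1P-Myc mice (mice 4 and 5) are marked 8x8 in their labels, a size the study's methods give for advanced tumors. Each control label holds a pair of numbers, which may stand for pooled animals and was counted as 1 mouse. The 44 libraries came from 13 mice and held 5790599 to 15240328 counts each, with a median of 12818093. For each mouse, counts were added up within a CD26 class, which gave 25 sums. There were 3 CD26− and 3 CD26+ sums of NFs, 5 and 4 of WB1P CAFs (mouse 1 had no CD26+ library), and 5 and 5 of WB1P-Myc CAFs. Some sums hold 1 library, and so 1 GFP class, instead of 2 libraries. In WB1P mice these are the CD26− sum of mouse 1 (GFP+) and the CD26+ sum of mouse 3 (GFP+, 5790599 counts). In WB1P-Myc mice they are the CD26− sum of mouse 1 (GFP−) and the CD26+ sum of mouse 2 (GFP+). Both sums of WB1P-Myc mouse 3 are also of 1 library (CD26− GFP−, CD26+ GFP+). Differences were tested on the 25 sums with edgeR, and a gene was called, or said to rise or fall, where its p adjusted over all genes tested was under 0.05. This fit had no term for the mouse, so it treated the CD26− and CD26+ sums of a mouse as independent. Across genes, their departures from the group means correlated at r 0.237 to 0.668 within a mouse. A fit with mouse as a block was made as an alternative. Levels are given in CPM, the count of a gene scaled to the total of its sum.

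Complement is a cascade of plasma and tissue proteins that marks surfaces and draws in immune cells. In the classical pathway the proteases C1r and C1s, held by C1q, cut C4 and C2 to form an enzyme that cleaves C3, and in the alternative pathway factor B and factor D form a C3-cleaving enzyme of their own. The liver makes most of the plasma pool, fibroblasts and macrophages make part of it locally, and inhibitors such as the C1 inhibitor hold the cascade in check.

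Dpp4, the gene for CD26, was at 0.619 to 17.6 CPM in the CD26− sums and at 223 to 846 CPM in the CD26+ sums, so the classes did not overlap. C1s1, C1ra, C4b, C4a, C3, Cfb and Serping1 were higher in CD26+ than in CD26− WB1P CAFs in 4 of 4 mice with both classes and in WB1P-Myc CAFs in 5 of 5 mice. In NFs only C3, C4b and C4a were higher in the CD26+ class in 3 of 3 mice. The share of all genes that were higher in every mouse was not taken, and C4a may hold reads of C4b. Cfd ran the other way and was highest in CD26− NFs, and C3ar1 stayed under 2 CPM in every sum. In sorted bulk samples such as these, fewer cells of a type and less RNA per cell cannot be told apart.

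The content of the sorts differed with the groups. The 6 pericyte markers (Rgs5, Kcnj8, Abcc9, Cspg4, Mcam, Higd1b) summed to 4405, 1571, 1973, 1531 and 2334 CPM in CD26− WB1P CAFs of mice 1 to 5 and to 9029, 2673, 4290, 3501 and 2249 CPM in CD26− WB1P-Myc CAFs. In NFs they summed to 96.4, 268 and 129 CPM in the CD26− class, and every CD26+ sum had 91.5 to 299 CPM. Thus CD26− CAFs stood far above all other groups, with 6 of 6 markers at 1 CPM or more and Rgs5 the most abundant, while 5 of 6 reached 1 CPM elsewhere with Abcc9 the most abundant. No gate of the sort removes pericytes. Their part in the differences between CD26− CAFs and the other groups that follow was not tested. The 8 fibroblast markers summed to 23832 to 54754 CPM, led by Col1a1 in every group.

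The 8 epithelial markers summed to 4.67 to 197 CPM, with Krt8 or Krt19 the most abundant, and 6 to 8 of 8 reached 1 CPM. The 6 endothelial markers summed to 16.8 to 85.2 CPM in CD26− sums and 69.3 to 542 CPM in CD26+ sums, where Tek was the most abundant. Tek made up most of the mean CD26+ sum: 309 of 358 CPM in NFs, 99.5 of 126 in WB1P and 103 of 125 in WB1P-Myc CAFs. In CD26+ CAFs 3 of 6 endothelial markers reached a mean of 1 CPM, against 5 of 6 in CD26− CAFs. In NFs 5 of 6 did in the CD26+ class and 6 of 6 in the CD26− class. The 4 Schwann cell markers summed to 3.69 to 57.4 CPM. In none of these 3 lists was a gene at 0 throughout a group. Their part in the results was not tested.

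C1s1 and C1ra encode the proteases that start the classical pathway. C1s1 stood at 561, 1206 and 639 CPM in CD26− NFs of mice 1 to 3 and at 678, 1018 and 840 CPM in their CD26+ NFs. In WB1P CAFs it was at 301, 456, 353, 363 and 336 CPM in the CD26− class of mice 1 to 5 and at 830, 908, 946 and 923 CPM in the CD26+ class of mice 2 to 5. In WB1P-Myc CAFs it was at 582, 851, 636, 231 and 834 CPM in CD26− and at 1165, 1052, 1072, 662 and 962 CPM in CD26+ sums. The 5 CD26− WB1P sums lay below all NFs and all CD26+ CAFs, while the classes overlapped in NFs and in WB1P-Myc CAFs. C1ra was at 245, 565 and 279 CPM in CD26− and 265, 409 and 330 CPM in CD26+ NFs. It was at 123, 244, 141, 147 and 168 CPM in CD26− and 330, 343, 394 and 394 CPM in CD26+ WB1P CAFs. Its WB1P-Myc values were 166, 321, 262, 133 and 410 CPM in CD26− and 370, 369, 408, 333 and 462 CPM in CD26+ sums. Both genes had their lowest mean in CD26− WB1P CAFs and their lowest WB1P-Myc sum in the CD26− class of mouse 4, which also had the lowest sum of adipocyte markers (0.494 CPM, described with Cfd).

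C1s1 rose in CD26+ against CD26− WB1P CAFs by a log2 fold change of 1.42 (SE 0.27, adjusted p = 0.00057, higher in 4 of 4 mice). C1ra rose by 1.25 in the same comparison (SE 0.28, adjusted p = 0.00234, higher in 4 of 4 mice). In WB1P-Myc CAFs C1s1 rose by 0.83 (SE 0.26, adjusted p = 0.0261, higher in 5 of 5 mice), a call that was lost without WB1P-Myc mouse 1 (0.68, adjusted p = 0.154) or mouse 3 (0.79, adjusted p = 0.0953). C1ra rose there by 0.76 (SE 0.27, adjusted p = 0.0482, higher in 5 of 5 mice). That call was lost without control mouse 1 or 3, WB1P mouse 3, 4 or 5, or WB1P-Myc mouse 1, 2, 3 or 4, with log2 fold changes of 0.61 to 0.90 and adjusted p-values of 0.0504 to 0.204. In NFs neither gene passed the test (adjusted p = 0.952 for C1s1 and 0.987 for C1ra). Against CD26− NFs, CD26− WB1P CAFs had lower C1s1 (log2 fold change -1.0, SE 0.29, adjusted p = 0.0106) and lower C1ra (-0.99, SE 0.30, adjusted p = 0.0141), with every WB1P sum below every NF sum. Control mouse 2, the highest of the NFs, carried these calls: without it C1s1 differed by -0.57 (adjusted p = 0.186) and C1ra by -0.51 (adjusted p = 0.254).

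C4b and C4a are neighbouring copies of complement C4, the substrate of C1s. C4b is the serum form of mice, and C4a, annotated here as a processed transcript, is known as the sex-limited form. C4b was at 159, 987 and 186 CPM in CD26− NFs and at 344, 1166 and 463 CPM in CD26+ NFs. WB1P CAFs had 94.0, 1116, 283, 352 and 470 CPM in the CD26− class and 3382, 2573, 3239 and 2712 CPM in the CD26+ class. WB1P-Myc CAFs had 778, 1545, 1043, 142 and 2004 CPM in CD26− and 3133, 2802, 2466, 1856 and 3245 CPM in CD26+ sums. All 9 CD26+ CAF sums lay above all NFs. Those of WB1P mice lay above all their CD26− sums, and those of WB1P-Myc mice overlapped them by 1 mouse, as mouse 5 was higher in its CD26− class than mouse 4 in its CD26+ class.

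C4a showed the same pattern at far lower counts, with 3.97, 18.8 and 5.41 CPM in CD26− and 10.2, 20.4 and 12.2 CPM in CD26+ NFs. It was at 3.71, 16.1, 8.42, 8.69 and 12.4 CPM in CD26− and 47.8, 71.3, 77.0 and 63.4 CPM in CD26+ WB1P CAFs. In WB1P-Myc CAFs it was at 21.0, 19.9, 29.8, 4.10 and 50.8 CPM in CD26− and 73.0, 38.4, 65.0, 47.4 and 75.5 CPM in CD26+ sums. CD26+ CAFs were again above all NFs, and the classes overlapped in WB1P-Myc CAFs but not in WB1P CAFs. C4a made up 1.27% to 3.80% of the counts of both copies in the 25 sums (median 2.47%). Of the 54-base words in C4a exons, 28.4% also occur in C4b, and of those in C4b exons 32.2% occur in C4a. The files do not say how reads that fit both copies were counted, so the C4a counts may hold reads of C4b.

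C4b rose in CD26+ against CD26− WB1P CAFs by a log2 fold change of 2.77 (SE 0.66, adjusted p = 0.00347, 4 of 4 mice), and C4a by 2.79 (SE 0.51, adjusted p = 0.000326, 4 of 4 mice). In WB1P-Myc CAFs C4a rose by 1.46 (SE 0.47, adjusted p = 0.0307, 5 of 5 mice). This was lost without WB1P-Myc mouse 1 (1.27, adjusted p = 0.146), mouse 2 (1.53, 0.0562), mouse 3 (1.48, 0.0773) or mouse 4 (1.24, 0.0737). C4b was higher there in 5 of 5 mice without passing (adjusted p = 0.0967) and passed with mouse as a block in the model (1.84, adjusted p = 0.0029). In NFs neither copy passed (adjusted p = 0.872 for C4b and 0.771 for C4a).

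CD26+ WB1P CAFs also had more C4b than CD26+ NFs (log2 fold change 2.39, SE 0.79, adjusted p = 0.0237, 4 of 4 mice above all NFs), as well as more C4a (2.35, SE 0.60, adjusted p = 0.00546). The C4b call was lost without control mouse 1 (2.09, adjusted p = 0.0828) or mouse 3 (2.18, adjusted p = 0.0956). CD26+ WB1P-Myc CAFs, set against the same NFs, had more C4b (2.15, SE 0.76, adjusted p = 0.033, 5 of 5 mice above all NFs) and more C4a (2.18, SE 0.59, adjusted p = 0.00703). Here C4b lost its call without control mouse 1 (1.86, adjusted p = 0.111) or 3 (1.95, adjusted p = 0.12), or without WB1P-Myc mouse 1 (2.05, adjusted p = 0.055) or 2 (2.14, adjusted p = 0.0522). In the CD26− class neither copy differed by the test between CAFs and NFs. For WB1P-Myc CAFs, C4a missed at an adjusted p of 0.0583 and passed by DESeq2 (1.36, adjusted p = 0.0386) and without control mouse 2 (2.40, adjusted p = 0.00885), WB1P mouse 1 (1.39, adjusted p = 0.0483) or WB1P-Myc mouse 4 (1.64, adjusted p = 0.0182). C4b in that comparison passed without control mouse 2 (2.67, adjusted p = 0.0199).

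C3, on which the pathways converge, was abundant throughout. It was at 645, 2703 and 584 CPM in CD26− and 2523, 6849 and 4417 CPM in CD26+ NFs. WB1P CAFs had 184, 2275, 627, 735 and 1287 CPM in CD26− and 4746, 3769, 4823 and 5334 CPM in CD26+ sums. WB1P-Myc CAFs had 1966, 3518, 2598, 418 and 4099 CPM in CD26− and 5856, 4143, 5739, 3848 and 6343 CPM in CD26+ sums. CD26+ NFs and CD26+ CAFs covered one range, and the CD26 classes were apart only in WB1P CAFs. C3 rose in CD26+ against CD26− WB1P CAFs by a log2 fold change of 2.28 (SE 0.60, adjusted p = 0.00691, 4 of 4 mice). It was higher in CD26+ NFs in 3 of 3 mice, by 2.53 to 7.56 times within a mouse, without passing (adjusted p = 0.202), and passed with mouse as a block (2.14, adjusted p = 0.0134). In WB1P-Myc CAFs it was higher in 5 of 5 mice, by 1.18 to 9.21 times, did not pass (adjusted p = 0.131), and passed with mouse as a block (1.51, adjusted p = 0.00975). C3 did not differ by the test between CAFs and NFs in either CD26 class (adjusted p from 0.276 to 0.842 over the 4 comparisons).

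**Figure D1:**
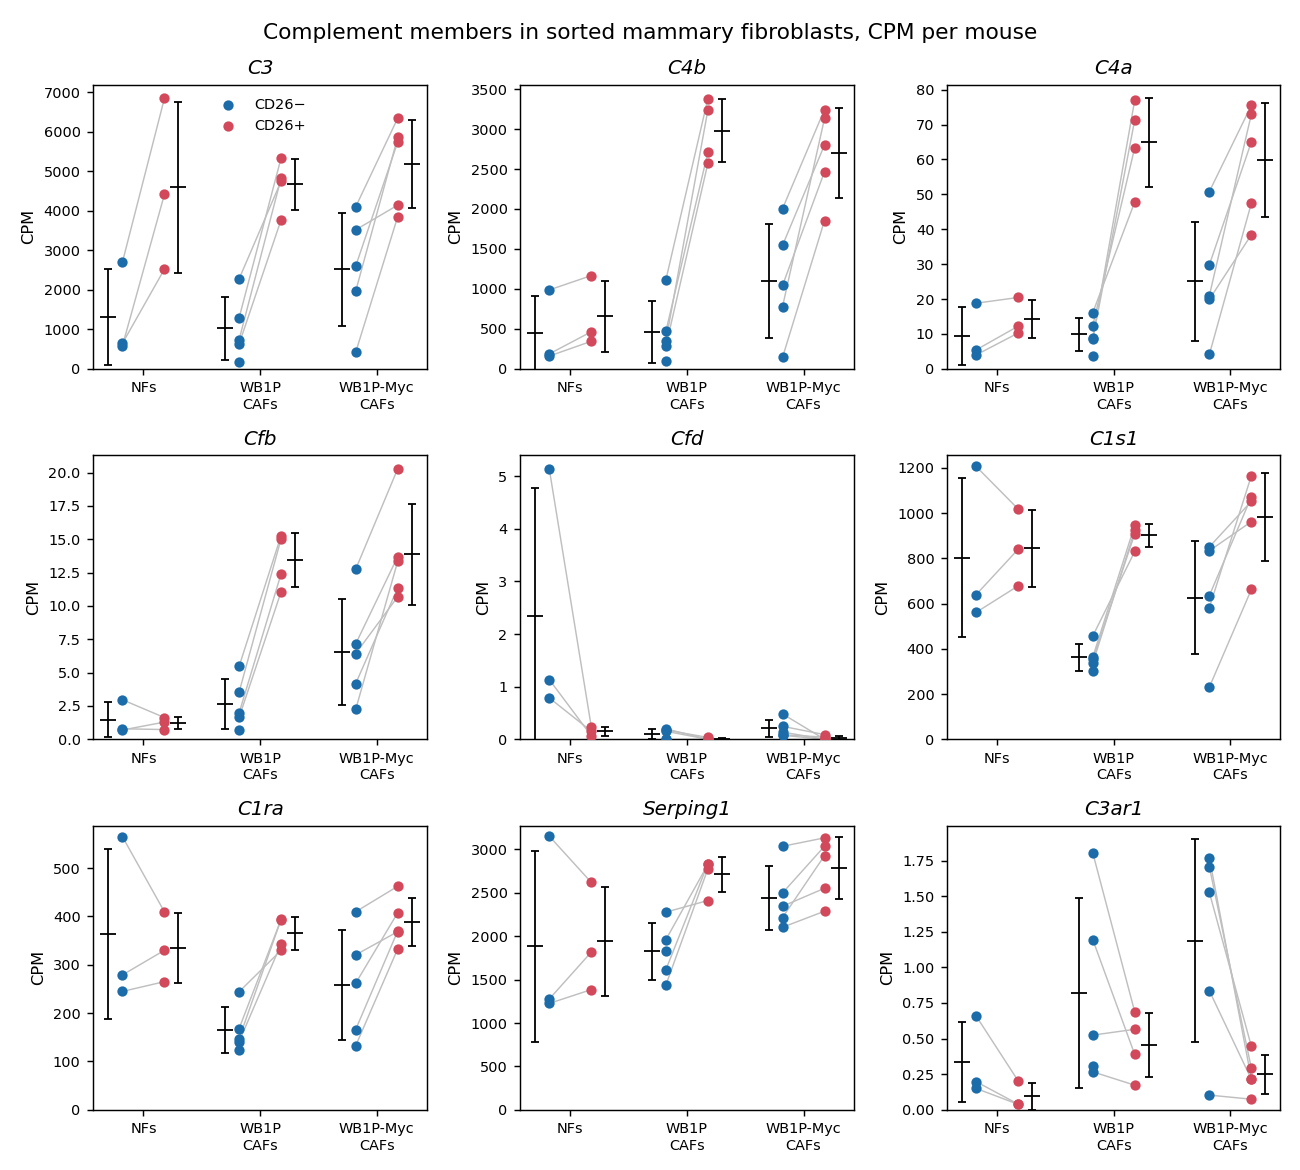
Level of each complement gene in CPM (linear axes from 0) in NFs, WB1P CAFs and WB1P-Myc CAFs, 1 point per mouse and CD26 class, with grey lines joining the classes of a mouse and black marks for the mean and SD. In WB1P CAFs 7 genes are higher in the CD26+ class in 4 of 4 mice (the share of all genes was not taken), and Cfd is near 0 outside CD26− NFs.

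Cfb and Cfd encode factor B and the protease factor D, the core of the alternative pathway enzyme. Cfb was at 0.787, 2.96 and 0.695 CPM in CD26− and 0.729, 1.63 and 1.29 CPM in CD26+ NFs. It was at 0.697, 5.46, 1.64, 1.97 and 3.53 CPM in CD26− and 15.3, 11.1, 12.4 and 15.0 CPM in CD26+ WB1P CAFs. WB1P-Myc CAFs had 4.18, 6.43, 7.15, 2.24 and 12.7 CPM in CD26− and 11.3, 10.7, 13.7, 13.3 and 20.3 CPM in CD26+ sums. CD26+ CAFs lay above every NF sum, while CD26− CAFs overlapped the NFs and, in WB1P-Myc mice, also the CD26+ class. These levels carry a limit of the annotation: 79.5% of the Cfb exon bases (2246 of 2825) also belong to the read-through gene Gm20547, which has 0 counts in all 44 libraries, so reads from those bases may be missing from Cfb.

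Cfb rose in CD26+ against CD26− WB1P CAFs by a log2 fold change of 2.42 (SE 0.50, adjusted p = 0.00103, 4 of 4 mice). Against CD26+ NFs it rose by 3.67 in CD26+ WB1P CAFs (SE 0.65, adjusted p = 0.000288, 4 of 4 mice above all NFs). Against the same NFs it rose by 3.61 in CD26+ WB1P-Myc CAFs (SE 0.63, adjusted p = 0.000293, 5 of 5 mice above all NFs). Against CD26− NFs it rose by 2.13 in CD26− WB1P-Myc CAFs (SE 0.59, adjusted p = 0.00778), with 4 of 5 mice above all NFs, and lost the call without control mouse 3 (1.78, adjusted p = 0.0606). For WB1P CAFs of that class it did not pass (adjusted p = 0.167) except without control mouse 2 (2.02, adjusted p = 0.0299). Between the CD26 classes of WB1P-Myc CAFs it missed the threshold at an adjusted p of 0.0578, with 5 of 5 mice higher, and passed by DESeq2 (1.24, adjusted p = 0.0415) and with mouse as a block (1.41, adjusted p = 0.00201). It also passed there without control mouse 2 (1.26, adjusted p = 0.0402), WB1P mouse 1 (1.26, adjusted p = 0.0392) or 2 (1.25, adjusted p = 0.0441), or WB1P-Myc mouse 5 (1.50, adjusted p = 0.0397). In NFs Cfb was higher in the CD26+ class in 1 of 3 mice (adjusted p = 0.965).

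Cfd, which fat cells are known to make in large amounts, was counted 229 times in all libraries together. Its levels in CD26− NFs were 0.787, 5.13 and 1.13 CPM, and those in CD26+ NFs 0.154, 0.238 and 0.0678 CPM. In CD26− CAFs it was at 0, 0.199, 0.152, 0.175 and 0 CPM in WB1P and at 0.0853, 0.137, 0.482, 0.0760 and 0.246 CPM in WB1P-Myc mice. In CD26+ CAFs 1 of 4 WB1P and 2 of 5 WB1P-Myc sums had any count. CD26− NFs thus stood above every other sum, and mouse 2 stood well above mice 1 and 3. The 8 adipocyte markers had their highest sum of the NFs in that mouse too. In NFs they summed to 8.95, 36.2 and 10.6 CPM for the CD26− class and 3.65 to 13.3 CPM for the other, and CD26− WB1P CAFs had 1.55 to 7.45 CPM, with Plin4 the most abundant in every group. The CD26− sums of WB1P-Myc CAFs had 14.1, 43.5, 4.42, 0.494 and 30.6 CPM, and CD26+ CAFs 0.542 to 9.87 CPM, where Lep was at 0, as was Cidec in the WB1P mice. Across the 10 CD26− CAF sums the log2 of these marker sums had a Pearson r of 0.95 with C1s1, 0.84 with C4b, 0.80 with C3, 0.79 with C4a, 0.78 with C1ra, 0.70 with Cfb, 0.51 with Serping1, 0.41 with Cfd and -0.15 with C3ar1. Across all 25 sums r was 0.12, -0.13, 0.01, -0.24, 0.10, -0.28, -0.21, 0.62 and -0.14 for these genes in turn. Plin4 made up 12.2 of 18.6 CPM of the mean adipocyte sum in CD26− WB1P-Myc CAFs and 1.70 of 3.74 CPM in CD26− WB1P CAFs. In these groups 3 and 2 of 8 adipocyte markers reached a mean of 1 CPM. The adipocyte r values thus need not hold for the markers other than Plin4. Of the other lists except myeloid, r lay farthest from 0 over the 25 sums for pericyte markers with C1ra (-0.68) and C1s1 (-0.65) and endothelial markers with C1s1 (0.67) and C3 (0.66), and over the 10 CD26− CAF sums for epithelial markers with C1s1 (-0.65). Tek made up most of the mean endothelial sum in each CD26+ group, so the endothelial r values need not hold for the other endothelial markers. The part of any of these cells in the values was not tested.

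Cfd fell in CD26+ against CD26− NFs (log2 fold change -3.83, SE 0.88, adjusted p = 0.0126, lower in 3 of 3 mice). The call was lost without control mouse 2 (-2.97, adjusted p = 0.225) or mouse 3 (-3.81, adjusted p = 0.109). Against CD26− NFs it fell in CD26− WB1P CAFs (-4.17, SE 0.76, adjusted p = 0.00021) and in CD26− WB1P-Myc CAFs (-3.57, SE 0.73, adjusted p = 0.000787), with every CAF sum below every NF sum. Without control mouse 2 the WB1P-Myc difference was -2.27 (adjusted p = 0.0313). Within CAFs the CD26 classes did not pass (adjusted p = 0.11 for WB1P and 0.105 for WB1P-Myc), though they did with mouse as a block, at -2.91 (adjusted p = 0.0458) and -2.28 (adjusted p = 0.0397). Cfd passed the filter on low counts mainly through CD26− NFs, the group where it was high, and a difference there is partly built into its being tested.

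Serping1 encodes the C1 inhibitor, which blocks C1r and C1s. It was at 1226, 3153 and 1276 CPM in CD26− and 1385, 2621 and 1817 CPM in CD26+ NFs. WB1P CAFs had 1829, 2278, 1616, 1438 and 1961 CPM in CD26− and 2412, 2835, 2777 and 2828 CPM in CD26+ sums. WB1P-Myc CAFs had 2215, 2345, 2499, 2103 and 3036 CPM in CD26− and 2929, 2553, 3037, 2288 and 3134 CPM in CD26+ sums. As a ratio of highest to lowest sum its levels spanned less than those of the other 8 genes, control mouse 2 was the highest NF in both classes, and the classes were apart only in WB1P CAFs. Serping1 rose there by a log2 fold change of 0.68 (SE 0.23, adjusted p = 0.0365, 4 of 4 mice). The call was lost without WB1P mouse 1, 3, 4 or 5 or WB1P-Myc mouse 2, 3 or 4 (0.61 to 0.67, adjusted p from 0.0561 to 0.136). It was higher in CD26+ WB1P-Myc CAFs in 5 of 5 mice without passing (adjusted p = 0.27).

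Between CAFs and NFs, Serping1 missed the threshold in CD26+ WB1P (adjusted p = 0.061) and CD26+ WB1P-Myc CAFs (adjusted p = 0.0663). It passed in both with mouse as a block (0.71, adjusted p = 0.0334, and 0.65, adjusted p = 0.0396). It also passed in both with single libraries (0.69, adjusted p = 0.00883, and 0.66, adjusted p = 0.0102), a fit that counts libraries of the same mouse as separate replicates. DESeq2 called Serping1 in CD26+ WB1P CAFs (0.65, adjusted p = 0.0494). Without control mouse 2 Serping1 was higher in CD26+ WB1P CAFs by 0.93 (adjusted p = 0.00479) and in CD26+ WB1P-Myc CAFs by 0.90 (adjusted p = 0.00506). Also without that mouse, Serping1 passed in CD26− WB1P CAFs (0.70, adjusted p = 0.0181) and CD26− WB1P-Myc CAFs (0.96, adjusted p = 0.00241), where it had not passed with all mice (adjusted p = 0.796 and 0.281).

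C3ar1 encodes the receptor for C3a, the small fragment released from C3, and is known from myeloid cells. It was at 0.150, 0.197 and 0.658 CPM in CD26− and 0.0384, 0.0397 and 0.203 CPM in CD26+ NFs. It was at 0.310, 1.20, 0.267, 0.524 and 1.80 CPM in CD26− and 0.388, 0.173, 0.565 and 0.688 CPM in CD26+ WB1P CAFs. WB1P-Myc CAFs had 1.71, 0.103, 1.77, 0.836 and 1.53 CPM in CD26− and 0.292, 0.0742, 0.218, 0.214 and 0.446 CPM in CD26+ sums. The high values were all in CD26− CAFs, in WB1P mice 2 and 5 and WB1P-Myc mice 1, 3, 4 and 5, and the CD26 classes overlapped within each transplant.

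The 12 myeloid markers, among them Ptprc for CD45, which the sort selected against, were high in the same sums. They summed to 25.3, 81.4, 23.5, 30.5 and 146 CPM in CD26− WB1P CAFs and to 142, 19.4, 130, 51.1 and 61.3 CPM in CD26− WB1P-Myc CAFs. NFs had 14.4 to 32.3 CPM in the CD26− class and 12.0 to 21.7 CPM in the CD26+ class, and CD26+ CAFs 16.3 to 47.2 CPM. The lowest C3ar1 and the lowest marker sum of the CD26− CAFs were both in WB1P-Myc mouse 2. In CD26− CAFs 11 of 12 markers for WB1P and 12 of 12 for WB1P-Myc reached a mean of 1 CPM, against 5 to 7 of 12 in the other groups, none was at 0 in a group, and Cd14, Cd68 or Csf1r was the most abundant. Ptprc was at 1.16, 3.23, 0.724, 1.00 and 9.94 CPM in CD26− WB1P and 4.18, 0.481, 10.0, 2.24 and 6.79 CPM in CD26− WB1P-Myc CAFs. C3ar1 and the myeloid sums, as log2, had a Pearson r of 0.89 over the 25 sums and 0.93 over the 10 of CD26− CAFs. Whether myeloid cells gave the C3ar1 counts was not tested.

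C3ar1 fell in CD26+ against CD26− WB1P-Myc CAFs (log2 fold change -1.94, SE 0.66, adjusted p = 0.0407, lower in 5 of 5 mice). The call was lost without WB1P mouse 4 (-1.94, adjusted p = 0.0529) or WB1P-Myc mouse 1 (-1.88, adjusted p = 0.131), 3 (-1.72, adjusted p = 0.141), 4 (-1.97, adjusted p = 0.0987) or 5 (-2.09, adjusted p = 0.0673). In WB1P CAFs it did not pass (adjusted p = 0.508, higher in CD26+ in 1 of 4 mice), and in NFs it was lower in 3 of 3 mice and passed only with mouse as a block (-1.73, adjusted p = 0.0408). CD26+ WB1P CAFs had more C3ar1 than CD26+ NFs (2.45, SE 0.89, adjusted p = 0.0379), but not with mouse as a block (2.47, adjusted p = 0.0864). This call was also lost without control mouse 1 (2.13, adjusted p = 0.115) or 2 (2.12, adjusted p = 0.133), or WB1P mouse 4 (2.41, adjusted p = 0.0695) or 5 (2.22, adjusted p = 0.0724). Against NFs, CD26− WB1P-Myc CAFs missed for C3ar1 at an adjusted p of 0.0735, and passed without control mouse 3 (2.64, adjusted p = 0.0385) or WB1P-Myc mouse 2 (2.05, adjusted p = 0.0193). C3ar1 passed the filter on low counts mainly through CD26− CAFs, where it was high, and 0 CD26+ NF sums reached the cutoff. Differences from either of these groups are partly built into its being tested.

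**Figure D2:**
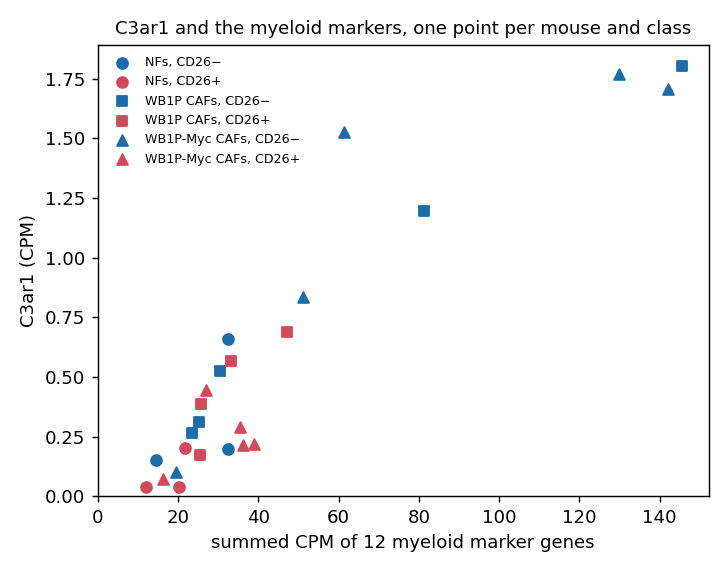
C3ar1 in CPM against the summed CPM of the 12 myeloid markers, 1 point per mouse and CD26 class. The CD26− CAF sums with 51.1 CPM or more of myeloid markers are the 6 with the highest C3ar1.

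Counted over the 9 genes, all of which were tested, 7 rose and 0 fell in CD26+ against CD26− WB1P CAFs, where 13% of the 16601 genes tested rose and 13% fell. In WB1P-Myc CAFs 3 rose and 1 fell, against 9.29% and 10.7% of all genes. The number called in WB1P-Myc CAFs, in either direction, was 8 with mouse as a block. It was 0 without WB1P-Myc mouse 1 or 3, 1 without mouse 4, and 2 without mouse 2 or WB1P mouse 4. The shares of all genes are from the fit of all mice without a block. None were taken for the alternatives, here or below. In NFs 0 rose and 1 fell (Cfd), against 2.67% and 1.49% of all genes, with 2 members at an unadjusted p under 0.05. There the count was 3 with mouse as a block and 0 without control mouse 2 or 3. The median log2 fold change of the members between the CD26 classes was 1.42 in WB1P CAFs, 0.83 in WB1P-Myc CAFs and 0.10 in NFs, beside 0.01, -0.01 and -0.02 over all genes tested. The members were chosen with earlier results of these data known, so setting them beside all genes is a description and no test. C4a and C4b may share reads and are counted separately.

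The 4 comparisons of CAFs with NFs share control mice. In CD26+ WB1P CAFs 4 members rose (C3ar1, C4b, C4a, Cfb) and 0 fell, against 17.4% and 16.1% of all genes, with 2 called without control mouse 1. In CD26+ WB1P-Myc CAFs 3 rose (C4b, C4a, Cfb) and 0 fell, against 17.4% and 17.3%. In CD26− WB1P CAFs 0 rose and 3 fell (C1ra, C1s1, Cfd), against 17.6% and 17.8%, while without control mouse 2 it was 2 (Serping1, Cfb) and 1 (Cfd). In CD26− WB1P-Myc CAFs 1 rose (Cfb) and 1 fell (Cfd), against 19.1% and 17.5%, with 5 called without control mouse 2. The median log2 fold change of the members was 0.67, 0.63, 0.10 and 0.93 in that order, beside 0.00, -0.01, 0.00 and 0.02 over all genes.

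Whether the CD26 difference itself differed between transplants was tested as an interaction. For WB1P CAFs against NFs edgeR called 0 of 9 members, beside 0.789% of all genes higher and 1.07% lower, with 5 members at an unadjusted p under 0.05. The lowest adjusted p was that of Cfb (log2 difference 2.65, SE 0.81, adjusted p = 0.111), and Cfb was the 1 member called by DESeq2 (2.65, adjusted p = 0.0276) and with mouse as a block (2.35, adjusted p = 0.027). For WB1P-Myc CAFs against NFs 0 members were called, with 0 at an unadjusted p under 0.05 and 0 by DESeq2, beside 0.277% and 0.885% of all genes. For WB1P-Myc against WB1P CAFs 0 members and 0% of all genes were called in either direction, with 0 members at an unadjusted p under 0.05 and 0 called by DESeq2.

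CD26− WB1P-Myc CAFs had higher mean levels than CD26− WB1P CAFs for all 9 genes, such as 2520 against 1022 CPM for C3 and 1102 against 463 CPM for C4b, with overlapping mice. By edgeR 0 of 9 differed, with 3 at an unadjusted p under 0.05 (C4a, Cfb and C1s1, adjusted p from 0.259 to 0.279) and 0 called by DESeq2, while 0.205% of all genes were higher and 0.307% lower. In the CD26+ class 0 members differed by either tool, 0 had an unadjusted p under 0.05, and 0% of all genes were called in either direction.

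The En1 lineage was compared within each CD26 class on single libraries, where 15584 genes were tested: En1+ with double− cells (CD26− and GFP−), and double+ (CD26+ and GFP+) with CD26+ cells. Between En1+ and double− fibroblasts edgeR called 0 of 9 members, with 0 at an unadjusted p under 0.05 and 0 by DESeq2, beside 0.00642% of all genes higher and 0% lower. C3 and C4a were each higher in En1+ cells in 1 of 10 mice with both populations, C3ar1 in 2 of 10, C4b, C1s1 and Cfd in 3 of 10 and the others in 4 of 10. The log2 fold change was -0.39 (SE 0.38) for C3 and -0.68 (SE 0.47) for C3ar1. Between double+ and CD26+ fibroblasts 0 of 9 members were called as well, with 0 at an unadjusted p under 0.05 and 0 by DESeq2, beside 0.0128% of all genes higher and 0% lower. Cfd was higher in double+ cells in 1 of 9 mice, the other members in 3 to 5 of 9.

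Set side by side per kilobase of exon, the levels in CD26+ WB1P CAFs (mean ± SD, n = 4) fell in the order Serping1 at 1167 ± 87.1, C3 at 908 ± 127, C4b at 523 ± 69.2, C1s1 at 288 ± 16.1 and C1ra at 122 ± 11.2 CPM per kb. C4a at 10.5 ± 2.04 CPM per kb followed far below, then C3ar1 at 0.105 ± 0.0520 and Cfd at 0.00958 ± 0.0192 CPM per kb. Each of these neighbours was apart by more than its SD, which is a spread between mice. The genes are measured in the same sums, and differences between genes within a mouse were not tested. In CD26+ WB1P-Myc CAFs (n = 5) the order was the same for the leading genes. There the means of Serping1 at 1199 ± 153 and C3 at 1008 ± 217 CPM per kb were apart by less than the SD of C3. In CD26− CAFs C1s1 came before C4b, at 116 ± 18.5 and 81.3 ± 68.4 CPM per kb in WB1P mice (n = 5). In WB1P-Myc mice (n = 5) they were at 200.3 ± 80.2 and 194 ± 125 CPM per kb. In both the means were apart by less than the SD of C4b. In CD26+ NFs (n = 3) C3 at 894 ± 422 and Serping1 at 835 ± 270 CPM per kb led. The means of C4b at 116 ± 78.0 and C1ra at 112 ± 24.3 CPM per kb were apart by less than the SD of either. In CD26− NFs (n = 3) Serping1, at 811 ± 472 CPM per kb, was apart from the next gene by more than the SD, and C1s1 at 256 ± 113, C3 at 255 ± 235, C1ra at 122 ± 58.9 and C4b at 78.0 ± 82.6 CPM per kb followed. Cfb, at 4.76 ± 0.727 CPM per kb of all its exon bases in CD26+ WB1P CAFs, is not placed in the order, as reads of most of those bases may be missing.

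The other genes of the pathway, a list of 46 of which 35 passed the filter, were read as a background to the members. Between CD26 classes 6 of them rose and 7 fell in WB1P CAFs, 3 rose and 8 fell in WB1P-Myc CAFs, and 3 rose and 4 fell in NFs, beside the shares of all genes given above (13% and 13%, 9.29% and 10.7%, and 2.67% and 1.49%). With mouse as a block the last 2 comparisons called 20 and 12 of them, with no share of all genes taken for that fit. The NF count was 3 without control mouse 1 or 2 and 2 without mouse 3. Their median log2 fold change was -0.34, -0.61 and -0.59 in that order, below that of the members in each. Cd55, which speeds the decay of the C3-cleaving enzymes on the cell surface, rose in CD26+ cells of all 3 transplants, by 4.68 in WB1P CAFs (SE 0.47, adjusted p = 5.44e-07), 3.93 in WB1P-Myc CAFs (SE 0.45, adjusted p = 1.62e-06) and 3.78 in NFs (SE 0.57, adjusted p = 0.00026). Its mean was 411, 422 and 585 CPM in the CD26+ and 17.3, 31.3 and 44.3 CPM in the CD26− class of these groups. Colec10, a lectin that can start the cascade, rose in all 3 as well (5.55, 4.87 and 4.32), at 1.78 to 9.71 CPM on average in CD26+ groups, and Cd55b rose in WB1P-Myc CAFs (2.98) and NFs (4.49). These last 2 genes passed the filter on low counts mainly through CD26+ groups, where they were high, so a difference between classes is partly built into their being tested.

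Other genes of the list were lower in CD26+ cells. Cd59a, which blocks the membrane pore, fell in WB1P CAFs (-1.78, SE 0.32, adjusted p = 0.000238), WB1P-Myc CAFs (-1.84, SE 0.29, adjusted p = 7.89e-05) and NFs (-1.57, SE 0.38, adjusted p = 0.0168). Hc, the gene of C5, fell in CD26+ CAFs (-3.05 in WB1P and -1.95 in WB1P-Myc), and Cfi, which cuts C3b and C4b, fell in CD26+ NFs (-3.06). C1s2 and C1rb, the paralogs of C1s1 and C1ra, rose with them in CD26+ WB1P CAFs (1.59 and 1.34). They share sequence: 20.1% of the 54-base words of C1s1 occur in other genes, C1s2 holding most of them, and 46.4% of those of C1ra occur in C1rb.

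Other calls between the classes were Susd4 (1.18), Cr1l (0.37), Cd93 (-3.44), Colec11 (-2.41), C6 (-2.39) and Colec12 (-0.86) in WB1P CAFs. In WB1P-Myc CAFs they were Cd93 (-3.20), C1qb (-1.99), C5ar1 (-2.07), Vtn (-1.97) and Colec11 (-2.15), and in NFs Colec11 (-3.43) and Colec12 (-0.84). Colec11 passed the filter on low counts only through CD26− groups, where it was high, and its falls carry the same limit. Cr1l stayed within 59.8 to 75.3 CPM on average in all 6 groups. Clu (13.8 to 48.3 CPM) and Csmd1 (7.86 to 15.3 CPM) were called in none of the comparisons of edgeR.

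**Figure D3:**
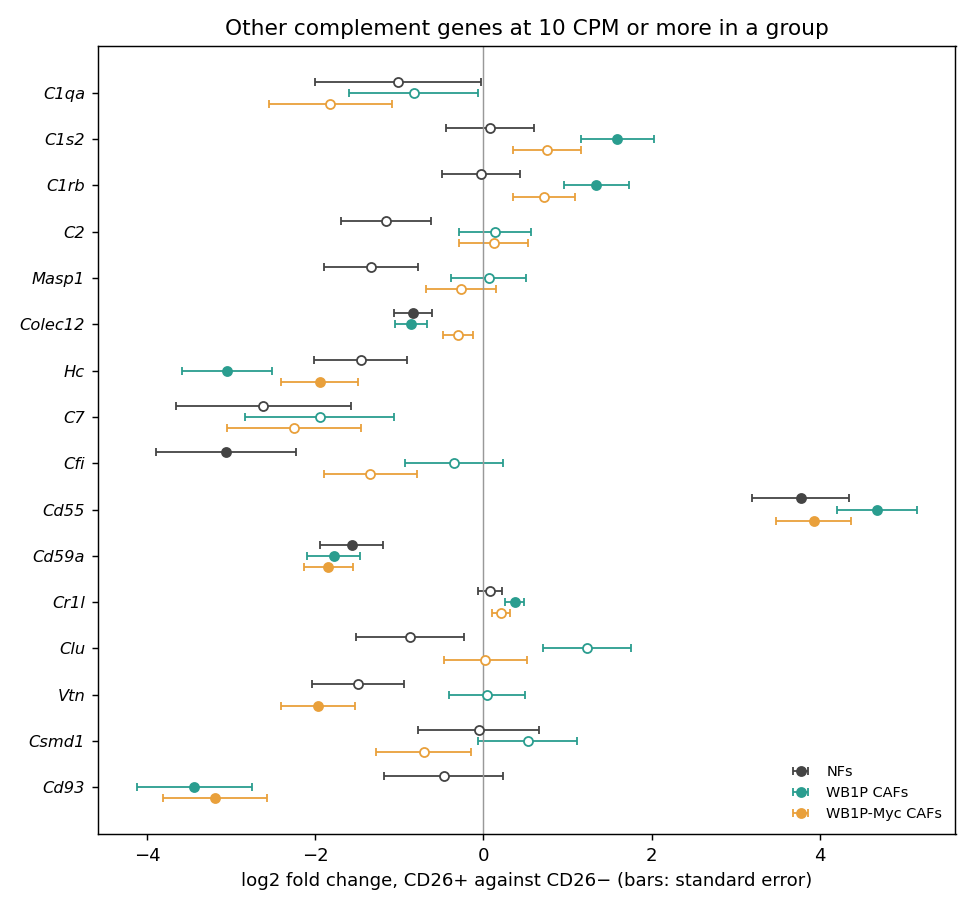
Log2 fold change of CD26+ against CD26− fibroblasts, with its standard error, for other complement genes with a mean of 10 CPM or more in a group, in NFs, WB1P CAFs and WB1P-Myc CAFs. Filled points have an adjusted p under 0.05. Cd55 lies far to the right in each, and Cd59a to the left.

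Between CAFs and NFs, where 16.1% to 19.1% of all genes were called in each direction, 7 of the 35 rose and 6 fell in CD26+ WB1P, 6 and 4 in CD26+ WB1P-Myc, 5 and 7 in CD26− WB1P and 8 and 2 in CD26− WB1P-Myc CAFs. The CD26− counts changed when 1 control mouse was left out, to 7 in WB1P without mouse 2 and to 5 or 4 in WB1P-Myc without mouse 1 or 3, and the last was also 5 with mouse as a block. Hc fell in all 4 (-4.82, -3.69, -3.23 and -3.21). Its mean was 168 CPM in CD26− NFs, 57.5 CPM in CD26+ NFs and 1.76 to 17.7 CPM in the groups of CAFs. Masp1, a protease of the lectin pathway, rose in all 4 (3.17, 2.94, 1.77 and 1.87), from 29.0 and 10.9 CPM to 80.1 to 108 CPM. Cd59a rose in all 4 (1.36, 0.89, 1.57 and 1.17) and Cfp, which steadies the alternative pathway enzyme, fell in all 4 (-0.94, -1.09, -0.94 and -0.78). C1qb rose in all 4 too (3.35, 2.73, 2.85 and 3.35), at no more than 6.85 CPM on average, and is known, like C3ar1, from macrophages.

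In CD26+ CAFs C2, the partner of C4 in the classical enzyme, rose with C4b (1.50 in WB1P and 1.74 in WB1P-Myc), as did Cfi (4.25 and 3.97) and Colec10 (2.60 and 1.96), while Cd55b (-2.97 and -2.44) and Cd93 (-2.17 and -2.03) fell. Cd55b passed the filter on low counts mainly through CD26+ NFs, where it was high, so its falls are partly built into its being tested. In CD26+ WB1P CAFs Itgax also rose (3.25), and C7 (-2.74) and Cd46 (-1.20) fell. Among CD26− WB1P CAFs C1qc (2.59) and Itgax (2.99) rose, and Cd55 (-1.20), Cd46 (-1.55), C1s2 (-1.61), Vtn (-1.79) and C7 (-3.41) fell. Among CD26− WB1P-Myc CAFs C1qa (2.62), C1qc (3.19), Itgam (2.71), Itgax (2.73) and Cfi (2.26) rose. Itgam belongs to the myeloid list as well. Itgam passed the filter on low counts only through CAFs, and Itgax mainly through them. Their rises over NFs are partly built into their being tested. As for Cfb, exons of C2 (42.8% of its bases) and Itgam (68.7%) are shared with read-through genes. Between WB1P-Myc and WB1P CAFs edgeR called 0 of the 35 in either class, with 5 in CD26− and 1 in CD26+ at an unadjusted p under 0.05, and DESeq2 called 1 (Colec12) and 0. Without WB1P-Myc mouse 4 the CD26− count was 1 (Vtn).

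Across the 25 sums the members fell into groups by the correlation of their log2 CPM, a description of points that share mice and groups. C4b and C4a (Pearson r 0.97), C1s1 and C1ra (0.94), C4a and Cfb (0.92), C4b and Cfb (0.92) and C3 and C4b (0.91) went together most, while Cfd and C3ar1 had r from -0.45 to 0.07 and from -0.40 to 0.23 with the other members. Among 8872 other genes with a mean of 10 CPM or more, the 5 most like each member were listed. For C3 they were Ly6c1, Medag, Fgf18, Ptx3 and Arhgef3 (r 0.95 to 0.91), and for C4b Ly6c1, Prelp, Ly6a, Fgf7 and Syk (0.94 to 0.92). For C4a they were Ly6a, Ly6c1, Serpinb1a, Syk and Prelp (0.96 to 0.93), and for Cfb Lbp, Sod3, Serpinb1a, Prdx6 and Ccn5 (0.95 to 0.92). C1s1 was most like Lmo2, Dpt, Tmeff2, Ces2g and Clec3b (0.95 to 0.93), and C1ra most like Ces2g, Lmo2, Tmeff2, C1rb and Dpt (0.96 to 0.92). Serping1 went with Nfkbia, Ly6a, Sod3, Nsg1 and Naglu (0.91 to 0.86), Cfd with Grasp, Hhip, Mme, Fmo2 and Tinf2 (0.89 to 0.83), and C3ar1 with Cd74, H2-Aa, Cd14, Pkp4 and Trps1 (0.83 to 0.75).

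By position on GRCm38, C4b (chr17:34728380-34743882), C4a (chr17:34809092-34823464) and Cfb (chr17:34856374-34862518) lie side by side on the minus strand, and C3 (chr17:57203970-57228136) lies further along that chromosome. C1ra (chr6:124512405-124523443) and C1s1 (chr6:124530345-124542359) are neighbours on opposite strands, and C3ar1 (chr6:122847138-122856161) is on the same chromosome. Serping1 (chr2:84765387-84775444) and Cfd (chr10:79890853-79892655) stand alone. The identifiers are ENSMUSG00000024164 for C3, ENSMUSG00000073418 for C4b, ENSMUSG00000015451 for C4a, ENSMUSG00000090231 for Cfb and ENSMUSG00000061780 for Cfd. Those of the others are ENSMUSG00000038521 for C1s1, ENSMUSG00000055172 for C1ra, ENSMUSG00000023224 for Serping1 and ENSMUSG00000040552 for C3ar1.

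Promoter sequence from RefSeq (GRCm38.p6) was found for 5 of the 9 genes: C3, Cfd, C1s1, C1ra and C3ar1. The 250 bases before the start are shown for C3 and C1s1, which rose together in CD26+ WB1P CAFs, the first on chr17:57228137-57228386 and the second on chr6:124542360-124542609, both on the minus strand. C1s1 has 2 starts there, of which the first listed, next to the annotated gene, is used, and the other was not searched. Capitals mark matches to TTNNGNAA on either strand, a pattern of the C/EBP factors, which are known to act on acute-phase genes.
C3: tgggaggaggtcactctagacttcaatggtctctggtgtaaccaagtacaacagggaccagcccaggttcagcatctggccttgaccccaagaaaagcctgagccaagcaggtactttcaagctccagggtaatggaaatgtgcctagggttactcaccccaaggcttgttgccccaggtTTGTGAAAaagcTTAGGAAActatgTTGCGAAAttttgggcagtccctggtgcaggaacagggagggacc
C1s1: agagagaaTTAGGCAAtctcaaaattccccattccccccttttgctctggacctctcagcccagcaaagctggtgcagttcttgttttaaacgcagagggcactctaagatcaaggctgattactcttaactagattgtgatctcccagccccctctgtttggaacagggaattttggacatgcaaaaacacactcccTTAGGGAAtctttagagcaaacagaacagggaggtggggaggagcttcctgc
C3 holds 3 matches, which begin 70, 58 and 45 bases before the start, and C1s1 holds 2, which begin 242 and 52 bases before it. Of 27025 mouse promoters of this length 36.9% hold at least 1 match, 11.1% at least 2 and 2.66% at least 3. The pattern TTCNNNGAA (7.18% of promoters) and the ISRE pattern (3.04%) have no match in either window, and the kappaB pattern (45.4%) has 4 in C3, overlapping none of the C/EBP matches, and 0 in C1s1. The Cfd window, not shown, holds 0 C/EBP matches and 1 kappaB match. The windows of C1ra (2 C/EBP matches) and C3ar1 (0) are not shown because they overlap annotated exons of those genes. These matches are descriptions of sequence only.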

How the data were processed

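The authors sequenced stranded mRNA libraries as paired-end reads and deposited raw counts of reads per gene, without normalization. Their notes name HISAT2 2.2.1 and GRCm38, and the counter and annotation release are not given in the sources used here. Counts were summed per mouse and CD26 class (25 sums, 6 groups), and single libraries (12 groups) were used for En1. In R 4.3.3, filterByExpr (minimum count 10) kept 16601 genes of the sums, and TMM, glmQLFit and glmQLFTest of edgeR 4.0.16 were fitted over all groups, with Benjamini-Hochberg over all genes tested and an adjusted p under 0.05 as the call. Alternatives were DESeq2 1.42.0 (size factors, Wald test), no filter, mouse as a block (limma 3.58.1 between transplants), single libraries, paralogs summed, only the groups compared, the study's log2 limit of 2, and leaving out the 8x8 mice or each mouse. As a check of pairing, the departure from the group mean was compared between the classes of each of 12 mice and correlated across genes at r 0.237 to 0.668. Members and lists were chosen with earlier results of these data known. Named with values were the members, other complement genes with a mean of 10 CPM or more in a group or with a call (1 is counted but not shown), Dpp4, the 5 genes most like each member (prior count 2), and markers of myeloid, adipocyte, epithelial, endothelial, pericyte, Schwann and fibroblast cells. Exon lengths are from GENCODE M21.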

Additional observations from a re-analysis of the deposited data

Results flagged for a closer look

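In 104 groups of 4 or 5 mice, over 26 complement genes, 4 held a mouse far from the others, and chance gives about 1 in 20 groups. In CD26+ WB1P CAFs, Cfd was at 0.0353 CPM in mouse 4 and at 0 in the other mice, which is a single count. In the same group Serping1 was at 2412 CPM in mouse 2, below the others. In CD26− WB1P-Myc CAFs, C1rb was at 31.4 CPM in mouse 5, above the others. In CD26− WB1P CAFs, Cd93 was at 32.4 CPM in mouse 1, whose sum is 1 library, above the others.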

How the results depend on the processing

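Of 527 alternative values of the 24 called log2 fold changes, 460 kept their call, 67 lost it and 0 changed sign. DESeq2's Wald test and single libraries lost 0, and mouse as a block lost 1 (C3ar1). DESeq2 also called Cfb, C4a and Serping1 in comparisons where they had missed, as given with the results. Of 54 mean CPM values, 3 moved on TMM sizes. Cfd and C3ar1 rest on few counts, which limits them. The cause of the changes that follow was not tested. No share of all genes called was taken under the alternatives, so the counts that follow have no share beside them.

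With mouse as a block, CD26+ against CD26− called 3 members and 12 other complement genes in NFs and 8 and 20 in WB1P-Myc CAFs, the CD26 difference of WB1P CAFs against NFs called 1 member, and CD26− WB1P-Myc CAFs against NFs called 5 other genes. Beyond the calls of single members given with the results, the block changed no other member's call.

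Fits on single libraries count libraries of the same mouse and CD26 class as separate replicates, so their counts do not rest on mice alone. With single libraries, counts were 2 members and 14 others for CD26 in NFs, 5 and 20 for CD26− WB1P CAFs against NFs, 5 members for CD26− WB1P-Myc CAFs against NFs, 16 others for CD26+ WB1P-Myc CAFs against NFs, 2 others for CD26− WB1P-Myc against WB1P CAFs, and 4 members for the CD26 difference of WB1P CAFs against NFs. DESeq2 called 1 other gene and 1 member in the last 2. With a log2 limit of 2, counts were 4 members and 6 others for CD26 in WB1P CAFs, 0 and 6 in WB1P-Myc CAFs, 1 and 5 for CD26− WB1P CAFs against NFs, and 6 others for CD26+ WB1P-Myc CAFs against NFs. Fitting only the groups compared gave 0 members and 2 others for CD26 in NFs and 1 member in WB1P-Myc CAFs, Cfb, which is not among the 4 called with all groups. C1ra, C1s1 and C4a lost their calls there, and C3ar1 was not tested. For CD26 in WB1P-Myc CAFs, no filter, summed paralogs and leaving out the 8x8 mice each gave 2 members, the last with 7 others.

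Leaving out each mouse in turn gave these ranges for members and others: CD26 in NFs 0 to 1 and 2 to 8, in WB1P CAFs 6 to 7 and 10 to 14, in WB1P-Myc CAFs 0 to 5 and 9 to 13. For WB1P and WB1P-Myc CAFs against NFs they were 3 to 3 (but other genes without control mouse 2) and 7 to 14, and 2 to 5 and 4 to 11, in CD26−. In CD26+ they were 2 to 4 and 9 to 16, and 2 to 4 and 7 to 11. For WB1P-Myc against WB1P CAFs, CD26−, others were 0 to 1.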
